A study of Homo sapiens with 9 samples.

Results

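The genes that encode YAP (YAP1), TAZ (WWTR1), the TEAD factors (TEAD1, TEAD2, TEAD3 and TEAD4) and VGLL4 were examined for p65 and TEAD binding in 786-O, a much used human cell line from a clear cell renal carcinoma. Members are the peaks whose summit lay in a fixed hg19 window at 1 of these 7 genes. The rule uses coordinates and no measured value, but the genes were proposed with earlier results of these data known. The members number 54 of the 60345 peaks in 5 lists. The windows were chromosome 11 from 101930000 to 102110000 for YAP1, chromosome 3 from 149230000 to 149470000 for WWTR1, chromosome 11 from 12670000 to 12970000 for TEAD1 and chromosome 3 from 11590000 to 11790000 for VGLL4. For the other genes the window reached 25 kb to either side of a single position: 49865714 on chromosome 19 for TEAD2, 35464861 on chromosome 6 for TEAD3 and 3068748 on chromosome 12 for TEAD4. No gene model of hg19 was used here, so peaks are not assigned to exons, introns or promoters.

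The data are chromatin immunoprecipitation sequencing (ChIP-seq) of 786-O cells under 4 conditions, with 1 library per condition and target. The NF-κB subunit p65 (RELA) was precipitated from control cells, from cells given an siRNA (siTEAD4 in the sample title, siTEAD in the treatment label), from vehicle cells and from cells given XMU-MP-1, which inhibits MST1 and MST2, the Hippo kinases. TEAD was precipitated from XMU-MP-1 cells only, and its antibody is labelled TEAD without a number, so the paralogue it binds is not stated. The other 4 libraries are input chromatin. The peak identifiers of the list labelled siTEAD4 carry another condition name, p65_Vert, so its treatment rests on the sample label. Lists of peaks hold no measure of TEAD4 RNA or protein, so the knockdown itself is not checked here.

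YAP and TAZ are transcriptional co-activators that do not bind DNA themselves. When the Hippo kinases are inactive, they enter the nucleus and bind TEAD1 to TEAD4, which recognise the short motif GGAATG. VGLL4 binds TEAD in competition with YAP and TAZ and acts as a repressor of their targets. In most clear cell renal carcinomas 1 copy of the short arm of chromosome 3, where VGLL4 lies, is lost.

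Promoter sequences from RefSeq (GRCh38.p14) show where the TEAD motif occurs in front of these genes. The table holds promoters for 5 of the 7 genes, 11 in all, each with 250 bases before and 50 bases after a transcript start. The sequence GGAATG, searched on both strands, was found in 1 of the 11, the YAP1 promoter, 162 bases before the start on the gene's strand. It is present in 14.0% of the 35116 promoters of RefSeq searched in the same way. The AP-1 motif TGANTCA (7.71% of all promoters) and the NF-κB motif (11.3%) were in none of the 11. The 250 bases before the YAP1 start are given with the motif in capitals, followed by those before a start of WWTR1, the gene of the paralogue TAZ, as a promoter without a match. These positions are in another build than the peaks, so no peak was placed on them, and the absence of these letters from a window says nothing about the factor.
YAP1, chr11:102110197-102110446, + strand: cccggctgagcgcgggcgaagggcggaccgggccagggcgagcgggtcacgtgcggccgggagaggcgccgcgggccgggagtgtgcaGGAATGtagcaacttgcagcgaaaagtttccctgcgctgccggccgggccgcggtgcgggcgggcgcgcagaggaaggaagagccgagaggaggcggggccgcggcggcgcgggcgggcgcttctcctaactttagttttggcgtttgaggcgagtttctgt
WWTR1, chr3:149658026-149658275, - strand: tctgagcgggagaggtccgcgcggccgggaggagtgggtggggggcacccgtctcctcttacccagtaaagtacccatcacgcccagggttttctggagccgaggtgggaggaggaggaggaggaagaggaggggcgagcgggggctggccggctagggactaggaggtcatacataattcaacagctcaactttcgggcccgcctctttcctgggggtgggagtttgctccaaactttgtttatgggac

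TEAD peaks lay at 5 of the 7 genes. The TEAD list had 26 members: 13 at WWTR1, 4 at TEAD1, 4 at VGLL4, 3 at YAP1 and 2 at TEAD4. The vehicle p65 list had 17 members, of which 8 were at WWTR1, 4 at TEAD1, 3 at VGLL4 and 2 at YAP1. The control p65 list had 9, with 4 at WWTR1, 2 at VGLL4 and 1 each at YAP1, TEAD1 and TEAD4. The XMU-MP-1 p65 list and the list labelled siTEAD4 each had 1 member, at WWTR1. Both are far smaller lists, with 1649 and 1813 peaks. The control p65, vehicle p65 and TEAD lists hold 15465, 17958 and 23460, so raw counts of members cannot be compared between lists. At TEAD2 and TEAD3 no list had a peak. Per 100 kb of window there were 2.43 TEAD, 1.59 vehicle p65 and 0.841 control p65 peaks, beside 0.784, 0.600 and 0.517 over the whole span of the lists, which includes regions without genes. Without WWTR1 the windows held 1.57 TEAD, 1.08 vehicle p65 and 0.602 control p65 peaks per 100 kb, so the pooled densities depend on WWTR1.

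**Figure D1:**
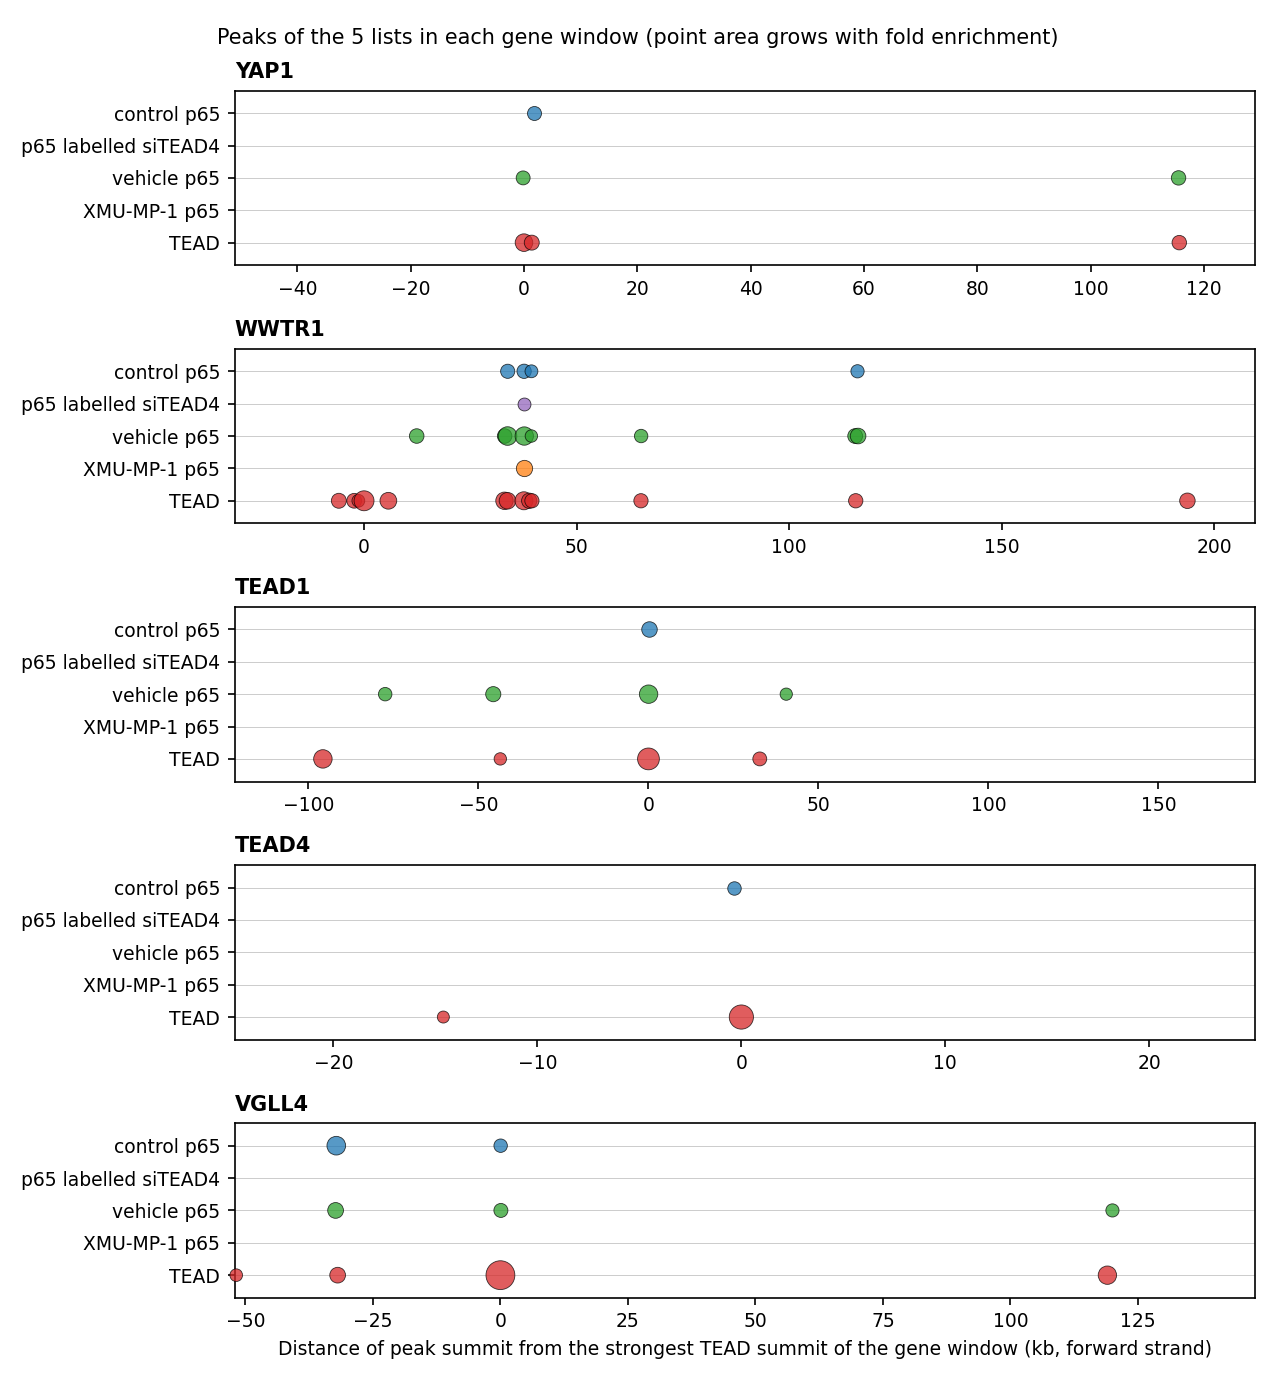
Summits of the peaks of the 5 lists (rows) in the windows of the 5 genes that hold peaks, by distance in kb from the strongest TEAD summit of each window, with point area growing with fold enrichment. The 2 treated p65 lists have a point only at WWTR1, where TEAD also has the most points (13).

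Joined where they overlapped, the 54 peaks formed 33 sites, numbered below along the forward strand within each gene. Of these sites 25 had a TEAD peak and 19 a p65 peak in any list. Both proteins were called at 11 sites, TEAD alone at 14 and p65 alone at 8. TEAD was precipitated from XMU-MP-1 cells only, while these p65 calls come from any p65 list. A site called for both was thus not necessarily bound by both in the same cells. The shares that follow set TEAD in XMU-MP-1 cells beside p65 in vehicle or control cells. Of the 26 TEAD peaks 12 had a vehicle p65 peak (46.2%, 95% Wilson interval 28.8 to 64.5), beside 34.5% of the whole TEAD list. With a control p65 peak there were 6 (23.1%, 11.0 to 42.1), beside 30.9%. Of the vehicle p65 peaks 11 of 17 had a TEAD peak (64.7%, 41.3 to 82.7), beside 45.6%, and of the control p65 peaks 6 of 9 (66.7%, 35.4 to 87.9), beside 47.4%. These intervals cover the counting of peaks only and each includes the share of its whole list, so none of the shares sets these genes apart.

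The first comparison asks how p65 binding at these genes differs under the siRNA. Of the 9 control p65 peaks 1 had a peak in the list labelled siTEAD4 (11.1%, 1.99 to 43.5), beside 11.2% of the whole control list. The 8 others, at YAP1, TEAD1, TEAD4, VGLL4 and WWTR1, were not called there. The second comparison asks the same for inhibition of the Hippo kinases. Of the 17 vehicle p65 peaks 1 had an XMU-MP-1 p65 peak (5.88%, 1.05 to 27.0), beside 8.77% of the whole vehicle list. The site kept was the same in both comparisons, WWTR1 site 9. Both shares are near those of the whole lists, so they say nothing particular about these genes. There is 1 library per condition, so neither difference has a replicate check.

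Most control and vehicle p65 peaks at these genes had folds below the median of their list, and peaks in their range of fold were kept less often than the whole lists. Whole-list shares taken in the same deciles of fold as the members were 2.86% for control peaks and 3.04% for vehicle peaks. Among all control peaks up to the highest control fold of a member (9.06) 3.94% were kept, and among all vehicle peaks up to the highest vehicle fold of a member (8.96) 2.97%. The shares of the members, each from 1 kept peak, lie above these figures, and their intervals include them.

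**Figure D2:**
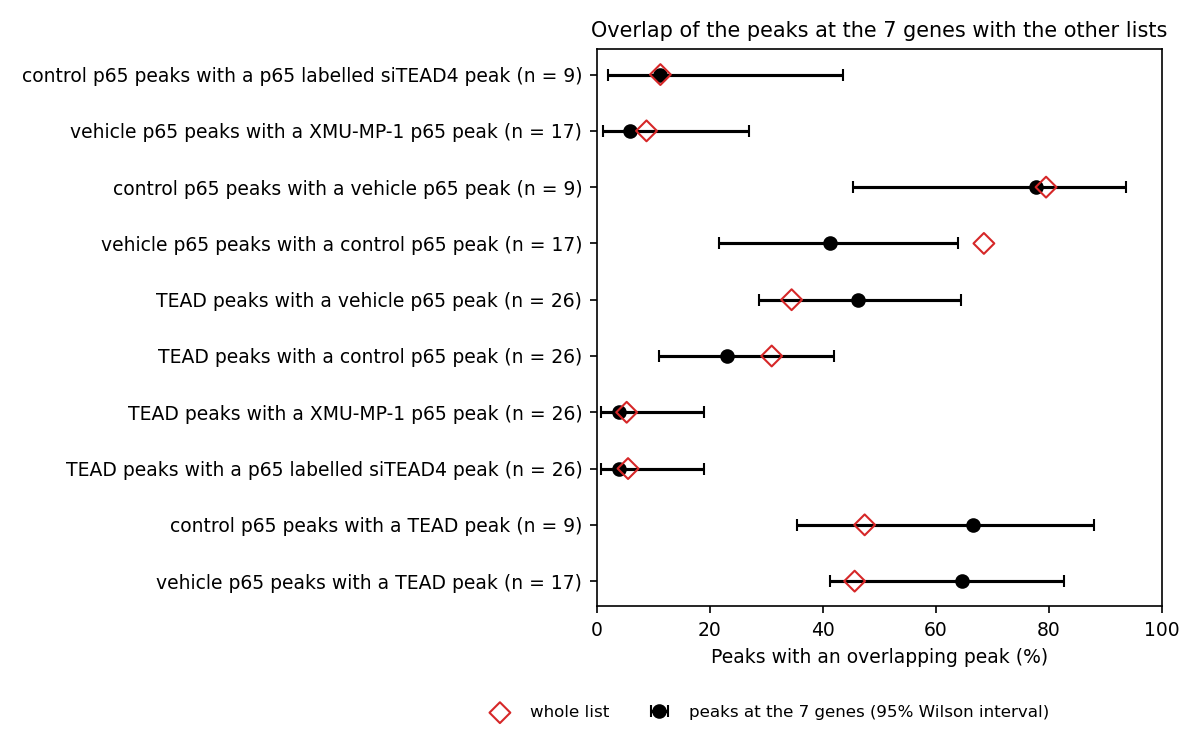
Share of the peaks at the 7 genes that overlap a peak of another list (filled points, with 95% Wilson intervals, n in the axis labels) and the same share over the whole list (open diamonds). The whole-list share lies outside the interval only for vehicle p65 peaks with a control p65 peak, 68.5% beside 41.2%.

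The control and vehicle lists, both from cells with neither treatment, agreed in part at these genes. A vehicle peak lay at 7 of the 9 control peaks (77.8%, 45.3 to 93.7), beside 79.5% of the whole control list. In the other direction 7 of the 17 vehicle peaks had a control peak (41.2%, 21.6 to 64.0), beside 68.5% of the whole vehicle list and 58.3% of that list in the same deciles of fold. The 10 vehicle peaks without a control peak had folds of 3.34 to 5.61 (median 4.80), and the 7 with one had folds of 3.48 to 8.96 (median 6.17). Of the TEAD peaks 1 of 26 had an XMU-MP-1 p65 peak (3.85%, 0.682 to 18.9), beside 5.26%. The same 1 had a peak in the list labelled siTEAD4, beside 5.50%. The single XMU-MP-1 p65 member and the single member of the list labelled siTEAD4 both had a TEAD peak, beside 75.2% and 71.6% of their whole lists.

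At YAP1, which encodes the co-activator that gives the family its name, 4 sites were found. Site 1, on chromosome 11 from 101980843 to 101981187, had a TEAD fold of 7.93 (66.3rd percentile of its list, 22 fragments at the summit) and a vehicle p65 fold of 4.60 (10 fragments), with summits 148 bp apart. Site 2, from 101982241 to 101982537, was a TEAD peak alone with a fold of 5.46. Site 3, from 101982687 to 101982907, was a control p65 peak alone with a fold of 4.66 (23 fragments). Sites 1 to 3 thus lay close together, and p65 was called at different sites among them in the control and vehicle lists. Site 4, from 102096466 to 102097006, had a TEAD fold of 5.05 and a vehicle p65 fold of 5.01. No p65 peak of either treated list lay in the YAP1 window.

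WWTR1, the gene of the co-activator TAZ, held 27 of the 54 peaks, on 14 sites. When summits up to 12.5 kb apart were joined, a description chosen after the values were seen, its 13 TEAD peaks formed 2 groups of 5 peaks, and the other 3 peaks (sites 11, 12 and 14) stood alone. The first group, sites 1 to 5 on chromosome 3 from 149254323 to 149266295 (11.97 kb), held 5 TEAD peaks with folds of 3.72 to 10.4 and no p65 peak of any list. The second, sites 7 to 10 from 149293344 to 149300038 (6.70 kb), held 5 TEAD peaks with folds of 4.85 to 8.36, together with 4 vehicle p65 peaks, 3 control p65 peaks and 1 peak in each treated p65 list. The nearest TEAD summits of the 2 groups were 27.3 kb apart. TEAD peaks without p65 are common: over the whole TEAD list 34.5% had a vehicle p65 peak and 30.9% a control p65 peak. Joined in the same way, the whole TEAD list formed 4418 groups of at least 2 peaks, of which 325 (7.36%) had 5 or more.

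Within the second group, site 9 (149297617 to 149298321) was the only member site called in all 5 lists. Its p65 folds were 4.90 (control), 3.82 (labelled siTEAD4), 8.71 (vehicle) and 6.65 (XMU-MP-1), and its TEAD fold was 8.36. A fold is relative to the local background used for its own list, so these values are no measure of change between lists. The summits rested on 36 fragments (95% Poisson interval 25.2 to 49.8), 30 (20.2 to 42.8), 25 (16.2 to 36.9), 33 (22.7 to 46.3) and 23 (14.6 to 34.5) in the same order. The local background at this summit in the list labelled siTEAD4 was 7.11, which is 1.62 times the median of that list. Its XMU-MP-1 p65 peak was at the 60.7th percentile of its list and its siTEAD4-labelled peak at the 12.8th. The summits of TEAD and vehicle p65 lay 87 bp apart, and those of TEAD and control p65 46 bp.

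Site 9 was not the strongest p65 site of the set: it had rank 3 of 9 by control fold and rank 3 of 17 by vehicle fold. Its neighbour, site 8 (149293881 to 149294382), had the highest vehicle p65 fold of all members, 8.96 (28 fragments, 18.6 to 40.5), a control fold of 4.78 (39 fragments) and a TEAD fold of 6.98. It was called in neither treated p65 list. The TEAD and vehicle p65 summits at site 8 were 8 bp apart, the closest such pair of the set. Site 7 (149293344 to 149293670) had a TEAD fold of 7.73 and a vehicle p65 fold of 5.09, and site 10 (149299029 to 149300047) had TEAD folds of 5.72 and 4.85 and p65 folds of 3.48 (vehicle) and 3.77 (control).

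The strongest TEAD peak at WWTR1 was site 4 in the first group (149260164 to 149260624), with a fold of 10.4 (79.9th percentile, 29 fragments, 19.4 to 41.6) and no p65 peak. Site 12 (149375621 to 149376224) had a TEAD fold of 4.92 and a vehicle p65 fold of 5.34. Next to it, site 13 (149376445 to 149376797) had p65 alone, with a fold of 4.06 in control and of 6.05 in vehicle cells. At the other sites outside both groups, TEAD and vehicle p65 at site 11 had folds of 4.86 and 4.20, vehicle p65 alone at site 6 had 5.12, and TEAD alone at site 14 had 5.92.

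**Figure D3:**
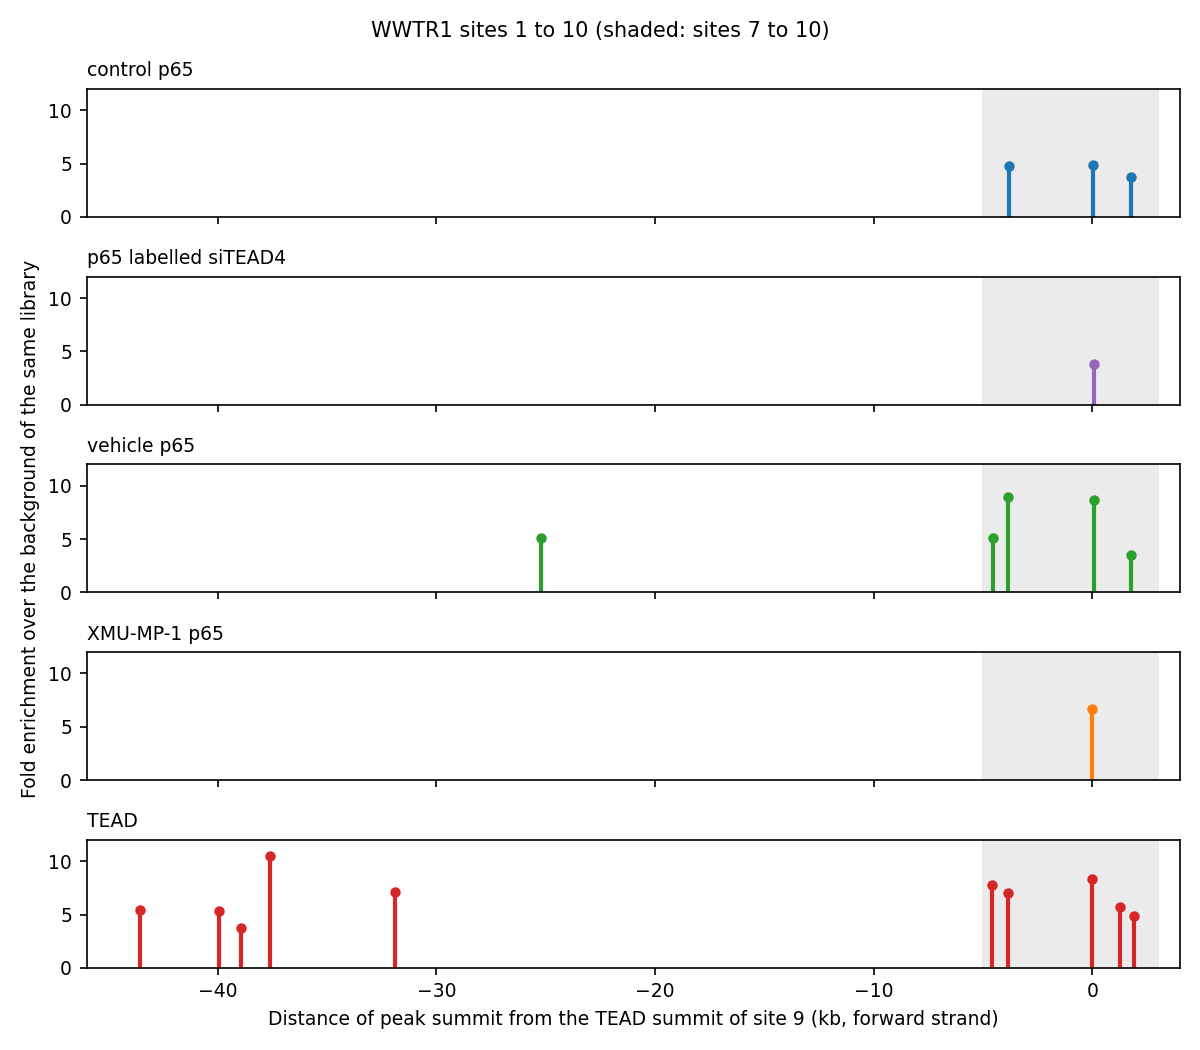
Fold enrichment of each peak, over the local background used for its own list, at WWTR1 sites 1 to 10, by distance in kb of its summit from the TEAD summit of site 9, with 1 panel per list and sites 7 to 10 shaded. The 5 TEAD peaks of sites 1 to 5, on the left, have no p65 peak, and the 2 treated p65 lists have a peak at site 9 only.

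TEAD1, a DNA-binding partner of YAP and TAZ, had 7 sites. The strongest, site 5 on chromosome 11 from 12791498 to 12791887, had a TEAD fold of 12.7 (86.3rd percentile, 39 fragments, 27.7 to 53.3), a vehicle p65 fold of 8.78 (24 fragments, 15.4 to 35.7) and a control p65 fold of 5.95 (49 fragments, 36.3 to 64.8). The control and vehicle p65 summits fell on the same base, 37 bp from the TEAD summit. This site ranked above WWTR1 site 9 in the control, vehicle and TEAD lists, and neither treated p65 list called it. Few peaks in this range of fold were kept. Of all control peaks up to a fold of 9.06 it was 3.94%, and of all vehicle peaks up to 8.96 it was 2.97%. The weakest peak of the list labelled siTEAD4 anywhere had 12 fragments at its summit, and the weakest of the XMU-MP-1 p65 list 14. These are the lowest numbers over whole lists, and calling also depends on the local background. They do not tell whether a peak at site 5 could have been called there.

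Away from site 5, TEAD and p65 were called apart at TEAD1. Site 1 (12695765 to 12696177) was TEAD alone with a fold of 8.82 (72.5th percentile), and TEAD alone was also called at site 4 (3.43) and site 6 (4.58). Vehicle p65 alone was called at site 2 (4.24), site 3 (5.61) and site 7 (3.34). None of these 6 sites had a control p65 peak.

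TEAD4, the TEAD factor named in the siRNA label, had the second strongest TEAD peak of the set. Site 3, on chromosome 12 from 3068408 to 3068784, had a TEAD fold of 15.9 (91.5th percentile, 49 fragments, 36.3 to 64.8) and no p65 peak of any list. It spans position 3068748, on which the window is centred, and its summit lay 0.166 kb below it. Site 2 (3068061 to 3068259), 0.543 kb below the same position, was a control p65 peak alone, with a fold of 4.24 (20 fragments, 12.2 to 30.9). It had no vehicle peak. Site 1 (3053840 to 3054155) was a TEAD peak with a fold of 3.16, at the 1.35th percentile of its list. The nearest vehicle p65 peak lay 47.5 kb away with a fold of 11.7, and the nearest peak in each treated p65 list lay over 601 kb away.

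At TEAD2 and TEAD3, the remaining TEAD genes, TEAD binding was not called within 25 kb of the stated position. The nearest TEAD peak to TEAD2 was 80.7 kb away with a fold of 5.77, and the nearest to TEAD3 was 96.1 kb away with a fold of 11.5. Control p65 peaks were 90.6 kb from TEAD2 and 95.99 kb from TEAD3. The whole TEAD list has 0.392 peaks per 50 kb on average, so a window of that width without a peak is not unusual.

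VGLL4, the TEAD-binding repressor, held the strongest TEAD peak of the 7 genes. Site 3, on chromosome 3 from 11641833 to 11642553, had a TEAD fold of 23.0 (96.5th percentile, 65 fragments, 50.2 to 82.8). The p65 peaks at the same site were weak, with a control fold of 4.21 (27 fragments, 13.8th percentile) and a vehicle fold of 4.66 (15 fragments, 24.0th percentile). Their summits lay 45 and 94 bp from that of TEAD. Site 2 (11609642 to 11610484) showed the reverse order within the lists, mainly through the control list. Its control p65 fold of 9.06 (40 fragments, 28.6 to 54.5) was the highest of all control members, at the 79.0th percentile. This site had a vehicle fold of 6.17 at the 54.4th percentile and a TEAD fold of 6.14 at the 47.6th percentile. Its TEAD and vehicle summits were 402 bp apart. Neither site was called in a treated p65 list.

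The other VGLL4 sites held 1 protein each. TEAD alone was called at site 4 (11760840 to 11761246) with a fold of 8.73 and at site 1 (11590194 to 11590581) with a fold of 3.61. Vehicle p65 alone was called at site 5 (11761970 to 11762152) with a fold of 4.01. Site 1 lay 0.296 kb inside the edge of the window. On the outer side of the same edge the nearest peak of any list was a control p65 peak with a fold of 5.14, 26.1 kb away. Beyond the upper edge of the VGLL4 window the nearest peak was a TEAD peak with a fold of 12.5, 16.8 kb outside. At WWTR1 a control p65 peak with a fold of 5.13 lay 3.997 kb outside the window. At TEAD4 a control p65 peak with a fold of 11.1 lay 22.5 kb outside.

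Ranked within their own lists, TEAD members spread over nearly the whole range, and most control and vehicle p65 members lay below the middle of their list. Of the control p65 members 1 of 9 was above the median fold of its list, 5.98, and the median of the members was 4.66. Of the vehicle p65 members 5 of 17 were above the list median of 5.87, with a median of 5.09. Of the TEAD members 11 of 26 were above the list median of 6.27, with a median of 5.82, and 2 were in the top 10% of the list, at VGLL4 and TEAD4. No control or vehicle p65 member was in the top 10%, but 3 vehicle members and 1 control member were in the top 25%. TEAD members with a vehicle p65 peak had a median fold of 6.56 and those without 5.46, beside 7.27 and 5.92 over the whole TEAD list. The summits of overlapping TEAD and vehicle p65 peaks lay 94 bp apart at the median over 11 vehicle members (8 to 402), beside 60 bp over 8193 peaks of the whole list.

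**Figure D4:**
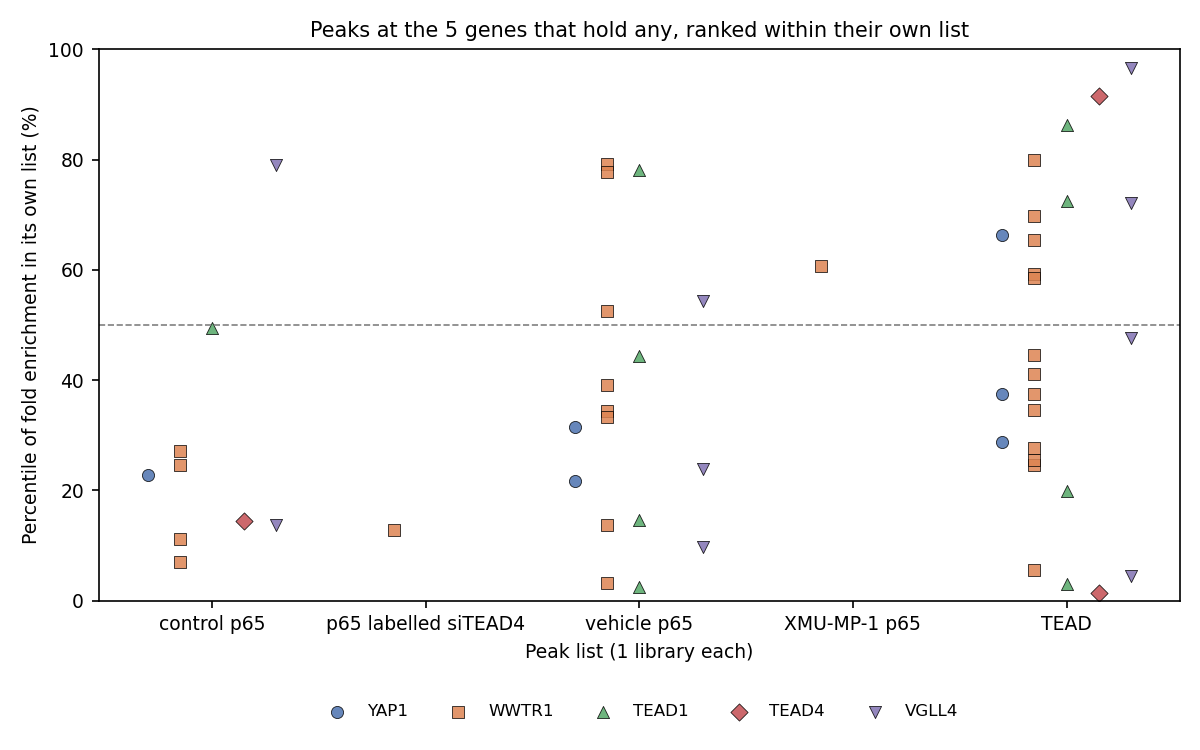
Percentile of the fold enrichment of each peak at the 5 genes within its own list (0 to 100%), by list, with 1 symbol per gene and a dashed line at the middle of the list. Of the 9 control p65 peaks 8 lie below the line, while TEAD peaks reach from the 1.35th percentile (TEAD4) to the 96.5th (VGLL4).

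The local background at the summits varied within each gene. Relative to the median of its own list, the local background of the 9 VGLL4 peaks was 0.690 to 1.28 (median 0.947), that of the 27 WWTR1 peaks 0.744 to 2.5 (median 1.01), that of the 6 YAP1 peaks 0.654 to 1.02 (median 0.813), that of the 9 TEAD1 peaks 0.787 to 1.66 (median 1.15), and that of the 3 TEAD4 peaks 0.832 to 1.67 (median 1.15). These ranges overlap between the genes. The values are small and come from called summits only, and copy number was not tested. Over the whole control, vehicle and TEAD lists the median number of fragments at a summit was 34, 18 and 18. Over their members it was 27, 15 and 16. The control numbers are before the scaling given below.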

How the data were processed

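Fixation was with formaldehyde and libraries were size selected, per the labels' protocols. Per the submitters' processing notes, the authors used fastp, Bowtie2 2.4.5 and MACS2 with hg19. MACS2 settings and the choice of input per list: not given in the sources used here. The deposited lists hold, per peak, the authors' fold enrichment (a ratio to the local background used for that list), a −log10 p-value, a −log10 q-value, a summit position (another value, in bp from the peak start) and a score, which was not used.

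The members and lists were chosen with earlier results of these data known. Peaks overlapping by at least 1 bp counted as shared. Sites named are the strongest per gene and list, those with a treated p65 peak, the strongest without one, and the nearest to a stated start; the few remaining sites were added after their values were seen. Shares carry 95% Wilson intervals and no test was made between conditions. The fragments and background at each summit were solved from the fold (pseudocount 1) and the Poisson p-value. This reached within 0.005 of the −log10 p for 99.9% to 100% of the peaks of a list. Fragment numbers of the control and XMU-MP-1 p65 lists are before a scaling of 0.587 and 0.783. Each scaling was fitted, as the value that best solved a subset of the peaks of the same list. The share of peaks solved is therefore no separate check of it. Python 3.11.15, numpy 2.4.6, pandas 2.3.3 and scipy 1.17.1 were used, and the code was tested on simulated data. The alternatives were other q limits, overlap rules, windows and lists, and leaving out WWTR1. Other Hippo pathway genes and motifs at peaks were not analysed here, since both need hg19 references.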

Additional observations from a re-analysis of the deposited data

How the results depend on the processing

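Of 44 recomputed shares 36 stayed within the 95% interval of the reported share and 8 moved beyond it. Without WWTR1 the share was 0% for control peaks with a siTEAD4-labelled peak (0 of 5), for vehicle peaks with an XMU-MP-1 p65 peak (0 of 9) and for TEAD peaks with an XMU-MP-1 p65 peak (0 of 13), because the only kept site is in that gene. The whole lists had 11.2%, 8.77% and 5.26% in the same order. At a −log10 q of at least 10 no control peak (0 of 2) had a peak in the list labelled siTEAD4. The whole control list had 12.7% at that limit. With q limits of 5 (4 of 4) and 10 (2 of 2) on the −log10 scale, 100% of control peaks had a vehicle peak. The whole control list had 78.5% and 80.9% at these limits. At the limit of 5 (4 of 4) 100% had a TEAD peak, beside 41.0% of the whole control list. These settings leave few peaks. With the control list in place of the vehicle list, chosen after seeing the data, 23.1% of TEAD peaks had a p65 peak (46.2% with the vehicle list). For control peaks, the XMU-MP-1 p65 list in place of the list labelled siTEAD4, also added later, gave 11.1% again. The whole control list had 10.2% with the XMU-MP-1 p65 list. The motif window at TEAD peaks was left out for want of an hg19 genome. No paired analysis was possible because no condition has more than 1 library. With 9 and 17 p65 peaks, shares are known only within wide intervals.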
